A study of Mus musculus with 18 samples.

Results

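Transcription factor genes of the lung mesenchyme, 10 in number, were followed in bulk RNA-Seq of mouse embryonic lungs. They are Tbx2, Tbx3, Tbx4, Tbx5, Foxf1, Tcf21, Twist1, Twist2, Meis2 and Prrx1. They were chosen by name, as 10 of the 23420 genes listed in each of 3 deposited tables, by a rule that uses no measured value but was set with earlier results of these data known. All 10 were found once in each table and all 10 passed the filter on low values in every experiment.

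The study asked how loss of Vangl1/2 or of Wnt5a alters the early lung, and the 18 libraries came from 3 experiments with 3 control and 3 mutant libraries each. In the Vangl1/2 experiment, lungs at E12.5 (in days post coitus) came from Vangl1-/- controls and Vangl1-/-; Vangl2-/- mutants. Both groups were thus labelled as lacking Vangl1, through a gene trap, and differed in Vangl2, which was mutated in the whole embryo. In the paper such mutants carry Sox2-Cre, which converts the floxed Vangl2. Its methods do not state whether the controls carried this Cre. In the Dermo1Cre experiment, Wnt5a f/+; Dermo1Cre controls were compared with Wnt5a f/f; Dermo1Cre mutants at E12.5, so that all 6 libraries carried the Cre and at least 1 floxed Wnt5a allele. Dermo1Cre acts in the mesenchyme and is a Cre inserted into Twist2, which is also called Dermo1. Every lung of that experiment, control or mutant, therefore carried an altered copy of a gene measured here. In the Sox9Cre experiment, Wnt5a f/+; Sox9Cre controls were compared with Wnt5a f/f; Sox9Cre mutants at E13.5, and Sox9Cre acts in the lung epithelium. The labels and the study's methods do not state how many embryos a library holds or that the libraries came from separate litters, so that the p-values measure the spread between these libraries.

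The lung mesenchyme surrounds the branching epithelial tubes and sends them growth signals, among them Fgf10 and Wnt2. T-box factors bind DNA through a shared T-box domain. Tbx4 and Tbx5 act in the lung mesenchyme on Fgf10 and on branching, while Tbx2 and Tbx3 are repressors that keep mesenchymal cells dividing. Foxf1 is a forkhead factor downstream of hedgehog signaling. Tcf21, Twist1 and Twist2 are basic helix-loop-helix factors of mesenchymal cells, and Meis2 and Prrx1 are homeodomain factors.

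The values are the authors' normalized counts, that is, reads per gene after division by a size factor of the library. Between 15945393 and 19814346 reads per library lay on genes, with size factors from 0.952 to 1.07. Markers of lung tissue were present in all 18 libraries. The epithelial factor Nkx2-1 lay between 2100 and 2884 normalized counts and the mesenchymal receptor Pdgfra between 2559 and 4273. The targeted gene Vangl2 lay between 277 and 406 in the Vangl1/2 controls and between 79.8 and 89.6 in the mutants. Reads of the trapped Vangl1 were still counted, at 113 to 219 in controls and 239 to 274 in mutants (log2 fold change 0.65, adjusted p = 0.23 by limma, and 0.88, adjusted p = 0.0021 by limma, without control 2). Wnt5a lay between 430 and 489 in the Dermo1Cre controls and between 230 and 436 in the mutants, and these ranges overlapped, since the library labelled mutant 2 stood at 436 and control 2 at 430 (adjusted p = 0.41 by limma). In the Sox9Cre experiment the Wnt5a ranges overlapped as well, at 426 to 473 in controls and 362 to 448 in mutants (adjusted p = 1.0 by limma).

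One library stood apart from its group. In the Vangl1/2 experiment a library's deviation from the mean of the 6 rose or fell with the transcript length of the gene. Across genes, Spearman's rho between deviation and length was -0.64 and -0.60 in controls 1 and 3. It was 0.36 in control 2 and 0.46 to 0.57 in the 3 mutants. Control 2 thus lay with the mutants in this respect, and the members' tests, the gene lists and the named genes of that experiment are also given without it.

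Twist2 and Tcf21 are the members whose groups did not overlap, with lower values in the mutants, in both experiments at E12.5. Of all genes, 8.68% did so in the Vangl1/2 experiment and 7.92% in the Dermo1Cre experiment. The share in both was not counted. In Dermo1Cre lungs the Tcf21 groups nearly touched, at 1433 in the lowest control and 1426 in the highest mutant. The 250 bases before the transcription start sites of Twist2 and Tcf21 in RefSeq (GRCm38.p6) are shown because these 2 genes share that pattern. Twist2 is at chr1:91801211-91801460 on the plus strand and Tcf21 at chr10:22820144-22820393 on the minus strand. The capitals mark motifs of the member families, searched on both strands: CANNTG (the E-box of basic helix-loop-helix factors), GGTGTG or CACACC (T-box), TGTTTA or TAAACA (forkhead) and TGACAG or CTGTCA (Meis).
Twist2: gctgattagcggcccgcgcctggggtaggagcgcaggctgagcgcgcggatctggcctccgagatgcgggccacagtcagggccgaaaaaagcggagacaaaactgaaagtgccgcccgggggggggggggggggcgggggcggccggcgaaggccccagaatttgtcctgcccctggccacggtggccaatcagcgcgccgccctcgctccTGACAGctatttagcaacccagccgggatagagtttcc
Tcf21: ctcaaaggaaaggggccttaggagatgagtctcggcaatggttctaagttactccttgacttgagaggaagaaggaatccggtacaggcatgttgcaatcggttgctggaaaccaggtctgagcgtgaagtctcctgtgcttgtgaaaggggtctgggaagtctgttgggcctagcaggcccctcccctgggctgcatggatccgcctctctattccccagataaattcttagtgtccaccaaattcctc
Twist2 held 1 Meis motif, starting 38 bases before the start site, and Tcf21 held none of the motifs. Of all 32851 promoter windows of the same length, 15.9% held the Meis motif and 66.2% held CANNTG. The T-box motif was in 16.3% and the forkhead motif in 12.03% of the windows. Promoter windows were found for 6 of the 10 members. A match of letters in a window is a description and says nothing of binding.

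Levels of different genes were compared per transcript length, as RPKM (reads scaled to the kilobases of the median GENCODE transcript and to the total of reads on genes). Tbx2 was the most abundant member, at 95.7 ± 8.6 RPKM (SD, n = 18 libraries). Foxf1 followed at 70.2 ± 4.6 RPKM and Tbx4 at 66.5 ± 4.9 RPKM. These 2 did not differ beyond their spread.
Tcf21 lay at 57.2 ± 5.0 RPKM, Tbx5 at 46.6 ± 4.6 RPKM and Meis2 at 35.2 ± 2.8 RPKM. Tbx3 lay at 28.0 ± 2.6 RPKM. Far lower were Twist2 at 10.1 ± 2.6 RPKM and Prrx1 at 7.5 ± 2.6 RPKM, which overlapped, and Twist1 at 2.7 ± 1.6 RPKM. The place of Meis2 rests on the transcript length used. With all annotated exons merged it fell from 35.2 to 8.9 RPKM.

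**Figure D1:**
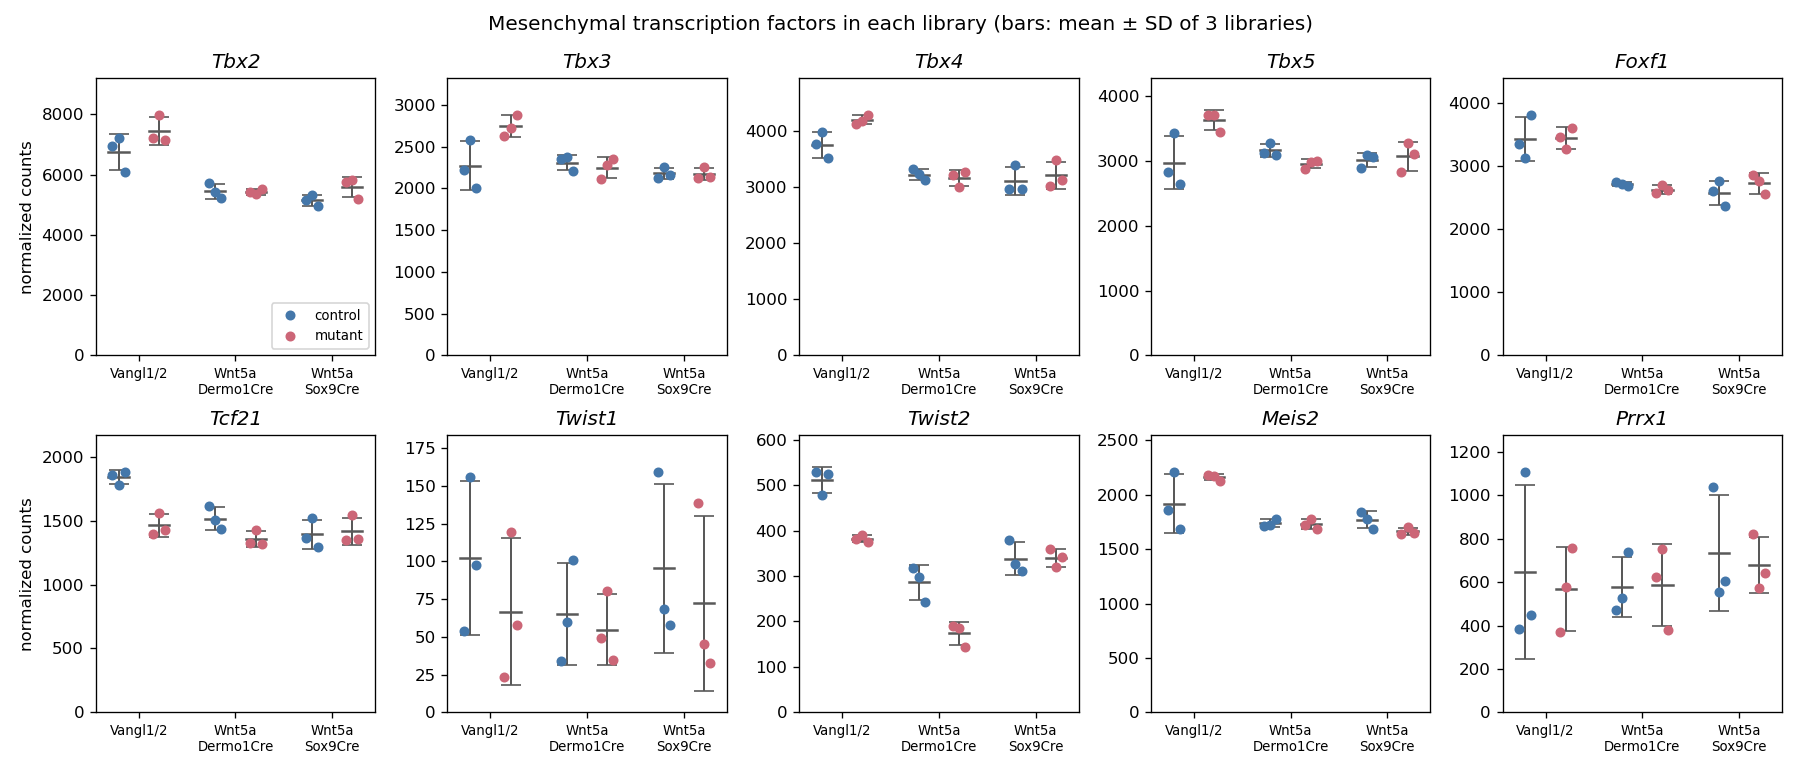
Normalized counts (vertical axes, from 0) of the 10 genes in each of the 18 libraries, as points for controls and mutants of the 3 experiments, with mean ± SD bars of 3 libraries. Twist2 is lower in all mutants than in all controls of the Vangl1/2 and Dermo1Cre experiments, and Twist1 and Prrx1 spread widely within groups.

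In Vangl1/2 mutant lungs, Twist2 and Tcf21 were lower and Tbx3, Tbx4 and Tbx5 higher in every mutant library than in every control library. None of the 10 members passed an adjusted p of 0.05 in limma's moderated test across 14303 genes. Of all genes tested, 0.00699% passed, which is the targeted Vangl2. edgeR on the recovered reads called 0 members, and so did DESeq2, which gave Twist1, Twist2 and Prrx1 no adjusted p. At an unadjusted p of 0.05, 2 members were lower and 2 were higher, against 8.56% and 12% of all genes in those directions. Groups did not overlap for 2 members with lower and 3 with higher mutant values. The same was true of 8.68% and 13.6% of all genes.

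Twist2 stood at 530, 477 and 525 normalized counts in the Vangl1/2 controls. In the mutants it stood at 380, 390 and 375, below all controls. The fitted log2 fold change was -0.42 ± 0.10 (SE, 95% interval -0.65 to -0.19, adjusted p = 0.23 by limma). Twist2 and its relative Twist1 are basic helix-loop-helix factors that restrain differentiation of mesenchymal cells.

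Tcf21, which marks lung fibroblast precursors, was 1859, 1780 and 1884 in controls. It was 1394, 1563 and 1431 in mutants. The groups were apart, with a log2 fold change of -0.33 ± 0.09 (SE, adjusted p = 0.23 by limma). In bulk tissue, fewer cells of a type and less RNA per cell cannot be told apart.

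Tbx5 was 2837, 3431 and 2651 in controls and 3714, 3718 and 3452 in mutants. Control 2 lay just below the lowest mutant, and the log2 fold change was 0.29 ± 0.11 (SE, adjusted p = 0.23 by limma). Tbx3 showed the same order, with 2225, 2584 and 2006 in controls and 2625, 2728 and 2885 in mutants, and a log2 fold change of 0.28 ± 0.11 (SE). Tbx4, the neighbour of Tbx2 on chromosome 11, was 3770, 3976 and 3514 in controls and 4129, 4185 and 4292 in mutants.
The log2 fold change of Tbx4 was 0.16 ± 0.09 (SE, adjusted p = 0.30 by limma). Tbx2 overlapped between groups, at 6076 to 7211 in controls and 7137 to 7993 in mutants. Foxf1 was level, with 3432 ± 350 in controls and 3446 ± 169 in mutants (SD, n = 3 each). Meis2 overlapped as well, since control 2 stood at 2212 while controls 1 and 3 stood at 1857 and 1681 and the mutants at 2178, 2174 and 2126.

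The changes of the members ran with transcript length, as those of all genes did. Over 14194 genes, Spearman's rho between log2 fold change and length was 0.68 in this experiment. Without control 2 it was 0.69 over 14053 genes. In the Dermo1Cre and Sox9Cre experiments it was 0.21 and -0.03. Tcf21 (1527.5 bases), Twist1 (1628 bases) and Twist2 (1927 bases) have the 3 shortest transcripts among the members, and these 3 genes had the 3 lowest fold changes. When the trend with length was removed from each library, Tcf21 moved from -0.33 to -0.12 and Tbx3 from 0.28 to 0.05 on the log2 scale. Tbx5 moved from 0.29 to 0.17. Twist2 moved from -0.42 to -0.28 (unadjusted p = 0.0084, adjusted p = 0.50 by limma) and was then the 1 member with an unadjusted p under 0.05. What gave rise to the trend was not tested.

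**Figure D2:**
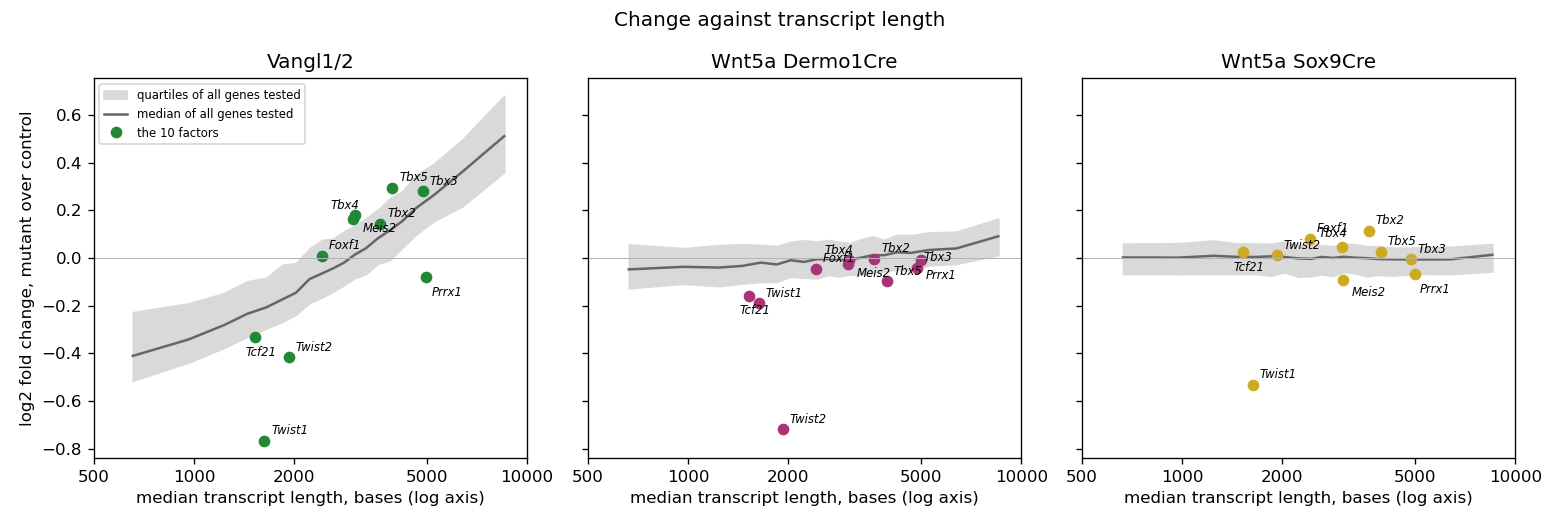
Log2 fold change of mutant over control (vertical axis) against median transcript length in bases (horizontal log axis) for the 10 genes as points, with the median and quartiles of all genes tested in 20 length bins as line and band. In the Vangl1/2 panel the line rises from -0.41 in the shortest bin to 0.51 in the longest, Tbx2 and Tbx3 lie near it and Tcf21 and Twist2 lie below the band.

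Control 2 was left out after seeing the data, as the control most like the mutants in its trend with length. Leaving out such a control makes a wider difference between groups likely beforehand, so that the calls that follow are a description. Without control 2, limma called 6 of the 10 members in the Vangl1/2 experiment. Tbx3, Tbx4, Tbx5 and Meis2 were higher and Tcf21 and Twist2 lower. Of all genes, 21.7% were then called higher and 22% lower. Tbx5 had the largest rise of the 4, at 0.40 ± 0.07 (SE, adjusted p = 0.0012 by limma) on the log2 scale. Twist2 fell by 0.47 (adjusted p = 0.0028 by limma). With the length trend also removed, 2 members remained, both higher, against 8.07% of all genes called higher. These were Meis2 at 0.27 ± 0.07 (SE, adjusted p = 0.026 by limma) and Tbx5 at 0.23 ± 0.07 (SE, adjusted p = 0.046 by limma). Twist2 was at -0.26 (adjusted p = 0.079 by limma).

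Markers of other cells moved in the same libraries. The summed smooth muscle markers (7 genes, among them Acta2) stood at 9261, 11860 and 13350 normalized counts in Vangl1/2 controls 1, 2 and 3. They ranged from 7352 to 10548 in mutants. At an unadjusted p of 0.05, 4 of 7 were lower, against 8.56% of all genes. Myocd ran the other way, at 133 to 244 in controls and 229 to 376 in mutants. Without control 2, 3 were lower and 1 higher at an adjusted p of 0.05 by limma, against 22% and 21.7% of all genes. With the length trend also removed, 0 were called. The 8 mesenchymal markers summed to 90978, 146179 and 72081 in controls 1, 2 and 3 and to 106462 to 132941 in mutants. Of the 8, 6 had a log2 fold change above 0 and 2 below it. The 2 were Mfap4, at 4301 to 5221 in controls and 3527 to 3890 in mutants, and Vim, at 14306 to 17919 and 13501 to 14371. The red blood cell markers, of which 4 had reads while Hba-a1 and Hba-a2 were at 0 in all 18 libraries, summed to 57535, 33586 and 51364 in controls 1, 2 and 3 and to 31332 to 44559 in mutants. The part of these markers in the members' differences was not tested.

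In the Dermo1Cre experiment, in which the mutants carried floxed Wnt5a and a mesenchymal Cre, Twist2 was the member that differed most. It stood at 319, 297 and 243 normalized counts in the controls. In the mutants it stood at 190, 187 and 145, and every mutant lay below every control. The mutant mean was 60.7% of the control mean, with a log2 fold change of -0.72 ± 0.14 (SE, 95% interval -1.03 to -0.41). Only 0.707% of all genes had a lower fold change.

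The unadjusted p of Twist2 was 0.00044 and its adjusted p was 0.19 by limma over 14277 genes. DESeq2 on the recovered reads gave an adjusted p of 0.0040. It called 24 genes lower in all, or 0.168% of those tested, while edgeR gave an adjusted p of 0.17. The call thus depended on the tool. The log2 fold change lay between -0.83 and -0.59 when any 1 library was left out, and it was -0.70 with the length trend removed. Without the library labelled mutant 2, whose Wnt5a lay within the control range, it was -0.78 (adjusted p = 0.15 by limma).

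All 6 libraries of the Dermo1Cre experiment carried the Cre in Twist2, so that the difference between its groups was measured over that shared allele. The tables cannot tell reads of the intact Twist2 copy from reads of the copy with the Cre. Scaled by the total of reads on genes alone (CPM), Twist2 had 17.8 ± 2.3 CPM in Dermo1Cre controls and 10.9 ± 1.5 in mutants (SD, n = 3 each). The Vangl1/2 controls of the same age, which did not carry this Cre, had 26.2 ± 0.6 CPM. The Sox9Cre controls had 20.9 ± 2.2 CPM at E13.5. Allele and table cannot be told apart between experiments, nor can stage where the Sox9Cre experiment is compared.

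As a share of Tcf21 reads in the same library, Twist2 was 19.8%, 19.8% and 16.9% in Dermo1Cre controls. It was 14.3%, 13.1% and 10.96% in the mutants, so that the groups stayed apart on this scale. In Vangl1/2 lungs the same share was 26.8% to 28.5% in controls and 24.97% to 27.3% in mutants, and the groups overlapped through control 2 at 26.8%. Without it, controls stood at 27.9% and 28.5%, above all mutants. Whether the share changed differently in the 2 experiments was not tested.

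**Figure D3:**
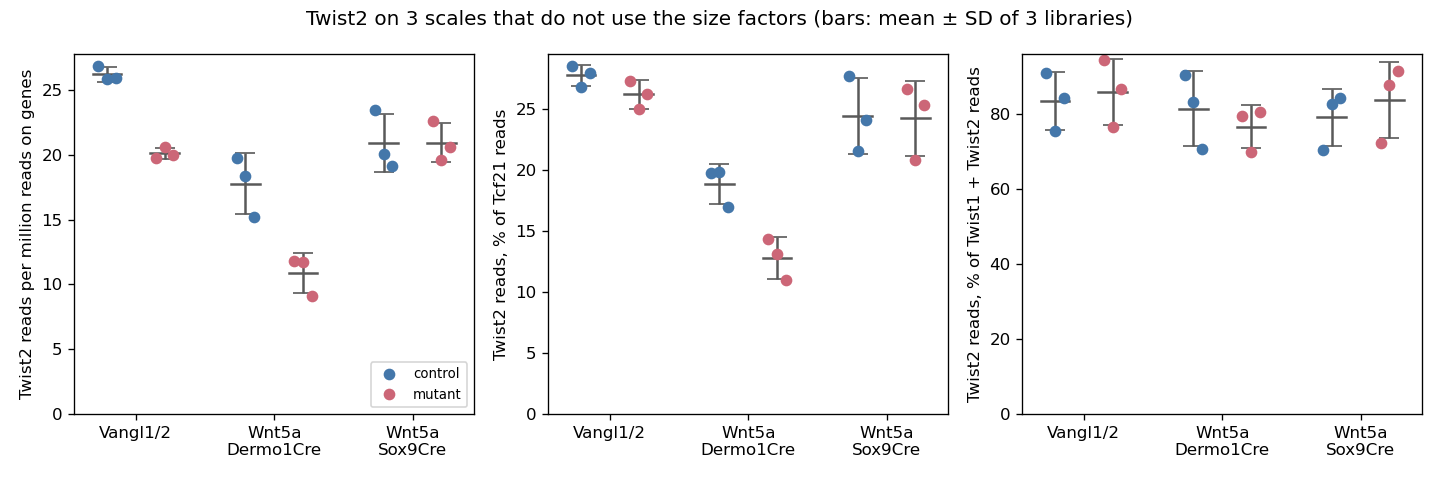
Twist2 in each library as CPM, as a percentage of Tcf21 reads and as a percentage of Twist1 plus Twist2 reads (vertical axes, from 0), with points for controls and mutants and mean ± SD bars of 3 libraries. In the Dermo1Cre experiment the mutants lie below the controls in the first 2 panels, and in the third panel all groups overlap.

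Of reads on the 2 Twist genes, Twist2 took most in every library, between 69.9% and 94.3%. The share was 81.4% ± 9.99 in Dermo1Cre controls and 76.6% ± 5.8 in mutants (SD, n = 3 each). These values overlapped, since Twist1 varied widely, from 34 to 102 reads per library in this experiment.

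The other 9 members differed little in Dermo1Cre lungs. None of the 10 members passed an adjusted p of 0.05 by limma, where 0.014% of all genes did. At an unadjusted p of 0.05, Twist2, Tcf21 and Tbx5 were lower, against 4.76% of all genes. The same 3 had groups that did not overlap, which held for 7.92% of all genes in that direction. Tcf21 was 1612, 1501 and 1433 in controls and 1323, 1426 and 1321 in mutants. The highest mutant and the lowest control of Tcf21 nearly touched, and the log2 fold change was -0.16 ± 0.06 (SE, adjusted p = 0.41 by limma).

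Tbx5 was 3130, 3279 and 3086 in controls and 2882, 2988 and 3005 in mutants. Its log2 fold change was -0.10 ± 0.04 (SE, adjusted p = 0.48 by limma). Tbx2, Tbx3, Tbx4, Foxf1 and Meis2 had log2 fold changes from -0.05 for Foxf1 to nearly 0 for Tbx2. Their 95% intervals reached from -0.16 at the lowest (Tbx3) to 0.09 at the highest (Tbx2). Prrx1 and Twist1 allowed far larger changes, with intervals of -0.53 to 0.51 for Prrx1 and -1.08 to 0.69 for Twist1.

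All 7 neuronal markers were higher in this experiment at an unadjusted p of 0.05, as were 774 of all 14277 genes tested. They summed to 486 to 824 normalized counts in controls and to 1048 to 2360 in mutants. The smooth muscle markers summed to 11954 to 16537 in controls and 8116 to 12877 in mutants. Of them, 6 of 7 were lower at an unadjusted p of 0.05, against 4.76% of all genes. The 10 heart muscle markers had a median log2 fold change of -1.34, with none at an unadjusted p under 0.05. They summed to 1354, 6636 and 20286 in controls and to 866 to 4138 in mutants, and the groups overlapped. The mesenchymal markers summed to 117007 to 134718 in controls and 104699 to 118996 in mutants. The part of all these markers in the lower Twist2 was not tested.

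In the Sox9Cre experiment, in which the mutants carried floxed Wnt5a and an epithelial Cre, no member passed any of the tests between groups. None reached an adjusted p of 0.05 by limma or edgeR over 14293 genes, or by DESeq2, and 0% of all genes did by limma. None had an unadjusted p under 0.05, against 3.9% of all genes (557 genes), and none had groups that did not overlap, against 8.78%. Twist2 was 379, 327 and 310 in controls and 359, 320 and 342 in mutants. Its log2 fold change of 0.01 had a 95% interval of -0.21 to 0.23. The estimate of -0.72 in Dermo1Cre lungs lay outside this interval. The direct test of the difference between these experiments, which also differ in stage and Cre, gave an adjusted p of 0.52 by limma.

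Tcf21 was 1392 ± 115 in controls and 1415 ± 109 in mutants (SD, n = 3 each) of the Sox9Cre experiment. The T-box genes stayed close together. Their log2 fold changes were 0.12 for Tbx2, nearly 0 for Tbx3, 0.05 for Tbx4 and 0.02 for Tbx5. Tbx2 had the smallest p of the 10, at 5157, 5336 and 4970 in controls and 5738, 5828 and 5195 in mutants (unadjusted p = 0.081, adjusted p = 1.0 by limma). Heart muscle markers differed in these libraries, at 5235 to 18469 summed normalized counts in controls and 1030 to 5701 in mutants. Tbx5, Tbx2 and Tbx3 are also expressed in the heart, and the part of such cells in their values was not tested.

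**Figure D4:**
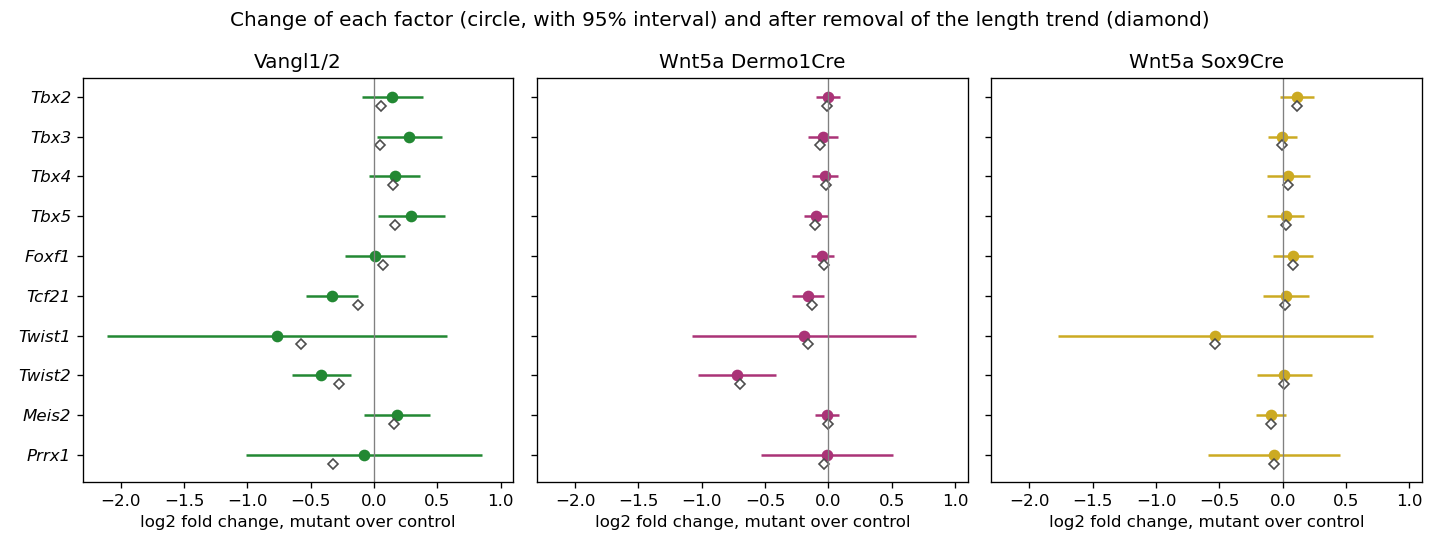
Log2 fold change of mutant over control (horizontal axis) for each gene in the 3 experiments, as circles with 95% intervals of the limma fit, and as diamonds after the length trend was removed. Twist2 lies at -0.42, -0.72 and 0.01 in the Vangl1/2, Dermo1Cre and Sox9Cre panels, and the intervals of Twist1 and Prrx1 are the widest.

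Whether the effect on a member differed between experiments was tested with interaction terms in limma over all 18 libraries and 14851 genes. No member passed an adjusted p of 0.05 in any of the 3 contrasts. Of all genes, 0.0135% passed for Vangl1/2 against Dermo1Cre, 0.0135% for Vangl1/2 against Sox9Cre and 0% for Dermo1Cre against Sox9Cre. At an unadjusted p of 0.05, 2, 5 and 1 members differed in these contrasts, against 16.7%, 24.5% and 2.9% of all genes. With the length trend removed these counts were 2, 1 and 1, against 9.74%, 12.9% and 3.64% of all genes. The members were then Tbx5 and Twist2 in the first contrast, Meis2 in the second and Twist2 in the third.

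The 1 member in the last contrast was Twist2. Its fold change was lower by 0.73 ± 0.17 (SE) on the log2 scale in Dermo1Cre than in Sox9Cre lungs (unadjusted p = 0.00041, adjusted p = 0.52 by limma). Between the Vangl1/2 and Dermo1Cre experiments, Tbx5 differed by 0.37 ± 0.11 (SE, adjusted p = 0.27 by limma), being higher in all Vangl1/2 mutants and lower in all Dermo1Cre mutants than in their controls. Tbx3 differed by 0.30 ± 0.11 (SE) between them. Between the Vangl1/2 and Sox9Cre experiments, Tcf21 differed by -0.38 ± 0.11 (SE, adjusted p = 0.16 by limma) and Twist2 by -0.45 ± 0.17 (SE). Tbx3, Tbx5 and Meis2 differed by 0.26, 0.25 and 0.25.

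Twist1 and Prrx1 varied more between libraries of the same group than nearly all other genes. Twist1 ranged from 23.1 to 160 normalized counts and Prrx1 from 372 to 1110 over the 18 libraries. The spread within groups was larger for Twist1 than for 97.6% to 99.1% of all genes in the 3 experiments, and larger for Prrx1 than for 91.4% to 97.0%. Twist1, needed for mesenchyme of the head and limbs, and Prrx1, a marker of limb and connective tissue mesenchyme, were high in the same libraries.

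Prrx1 was highest in Vangl1/2 control 2 at 1110 and in Sox9Cre control 1 at 1041. Twist1 stood at 156 and 160 in these 2 libraries, its 2 highest values. Over 18 libraries, after the mean of each group was taken off, Pearson's r between the 2 genes was 0.77 and Spearman's rho 0.72. Within the Vangl1/2, Dermo1Cre and Sox9Cre experiments r was 0.71, 0.89 and 0.83, and without the 2 libraries farthest in Twist1 it was 0.75. These are descriptions, since the libraries share scaling and tissue.

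Prrx1 also ran with the mesenchymal markers (r = 0.80) and against the red blood cell markers (r = -0.89) over the 18 libraries. Its r was 0.70 with markers of cartilage, 0.65 with those of neural crest and glia and 0.64 with those of oesophagus and stomach. For Twist1, r was 0.72 with oesophagus and stomach markers, 0.65 with heart muscle markers, 0.58 with mesenchymal markers and -0.72 with red blood cell markers. Meis2 ran with the mesenchymal markers at r = 0.91. Twist2 and Tcf21 had an r of -0.11 and -0.14 with the mesenchymal markers. The r values with markers were not recomputed without Vangl1/2 controls 2 and 3. Tbx3 and Tbx5 had an r of 0.75, and 0.36 without Vangl1/2 controls 2 and 3. Within the Vangl1/2, Dermo1Cre and Sox9Cre experiments their r was 0.78, 0.82 and 0.78.

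**Figure D5:**
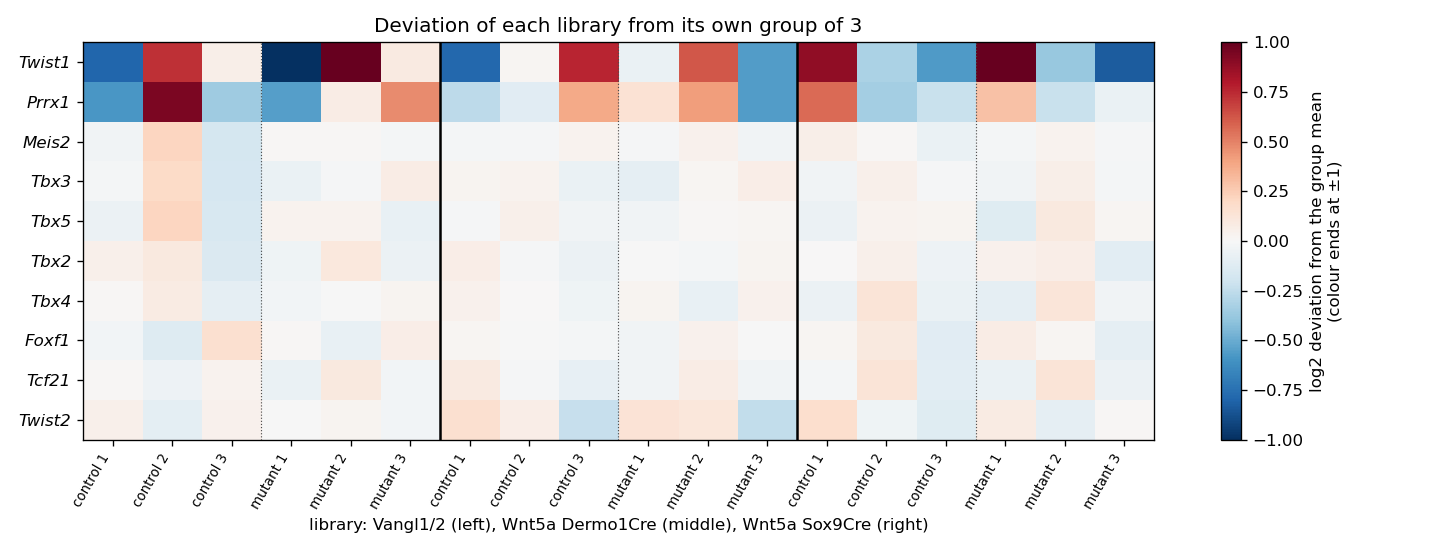
Deviation of each library from the mean of its own group of 3, on the log2 scale, for the 10 genes (rows) in the 18 libraries (columns), with colours that end at 1 in either direction. Twist1 and Prrx1 have the strongest colours and mostly share their sign, and Meis2, Tbx3 and Tbx5 are high together in Vangl1/2 control 2.

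The other members were steadier, with standard deviations of 1.3% to 14.4% of the mean over the 6 groups, where Prrx1 and Twist1 had 18.9% to 80.1%. Which of them varied most depended on the group. In Vangl1/2 controls Meis2 was at 14.1%, Tbx5 at 13.7% and Tbx3 at 12.8%, while Twist2 was at 5.7%. In Dermo1Cre controls and mutants Twist2 was at 13.7% and 14.4%, and Tbx2, Tbx3, Tbx4, Tbx5, Foxf1, Tcf21 and Meis2 lay between 1.3% and 6.0%.

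Genes that act with the members were followed as 3 further lists. Of 25 other mesenchymal factors, 24 were tested in each experiment and 0 passed an adjusted p of 0.05 by limma. In Vangl1/2 lungs 7 were higher and 1 lower at an unadjusted p of 0.05, against 12% and 8.56% of all genes, with a median log2 fold change of 0.15 against -0.01 for all genes. Without control 2, 10 were higher and 0 lower at an adjusted p of 0.05 by limma, against 21.7% and 22% of all genes. With the length trend also removed 6 were higher, against 8.07% of all genes. The smallest p-values belonged to Gli3, Zfpm2 and Trps1. Gli3, a transducer of hedgehog signaling, was 2157 ± 711 in controls and 3584 ± 92 in mutants (SD, n = 3 each). Its log2 fold change was 0.78 before and 0.61 after removal of the length trend, and 1.04 without control 2.

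In Dermo1Cre lungs 1 of these factors, Nr2f2, was lower at an unadjusted p of 0.05, against 4.76% of all genes, at 5228 ± 193 in controls and 4817 ± 231 in mutants (SD, n = 3 each). Foxf2, the closest relative of Foxf1, had a log2 fold change of -0.11 and Nr2f1 of -0.12. In Sox9Cre lungs 2 were higher and 2 lower at an unadjusted p of 0.05, against 1.08% and 2.81% of all genes. Gli1, a direct target of hedgehog signaling, was 1592 ± 48 in controls and 1861 ± 31 in mutants (SD, n = 3 each), while Ebf1 and Gata6 had log2 fold changes of -0.48 and -0.20. The adjusted p of Gli1 was 1.0 by limma.

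Of 24 family members and partners, 22 were tested in the Vangl1/2 and Dermo1Cre experiments and 23 in the Sox9Cre experiment, and 0 passed an adjusted p of 0.05 by limma. Without Vangl1/2 control 2, 5 were higher and 6 lower at that threshold, against 21.7% and 22% of all genes. With the length trend also removed, 3 were higher and 0 lower, against 8.07% of all genes called higher. Tcf4, a dimer partner of Twist factors, had a log2 fold change of 0.47 in Vangl1/2 lungs and 0.61 without control 2. Prrx2, the relative of Prrx1, was lower without overlap in both experiments at E12.5. It was 354 ± 27 in controls and 279 ± 27 in mutants of the Vangl1/2 experiment, and 187 ± 13 and 145 ± 24 in the Dermo1Cre experiment (SD, n = 3 each). With the length trend removed its log2 fold change in Vangl1/2 lungs went from -0.34 to -0.08, and with control 2 also left out it was -0.03.

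Tcf15, another basic helix-loop-helix factor, was 51.9 ± 4.7 in Dermo1Cre controls and 28.3 ± 0.6 in mutants (SD, n = 3 each, adjusted p = 0.20 by limma). Tbx1 had a log2 fold change of -0.28 there. In Sox9Cre lungs the smallest p-values belonged to Tbx18, Hand2 and Tbx20. Tbx20, a T-box factor of the heart, was 187 ± 94 in controls and 75.2 ± 38.6 in mutants (SD, n = 3 each). Hand2, a factor of the heart and limb, had a log2 fold change of -1.03, and Tbx18 of -1.02. The heart muscle markers were lower in these same mutant libraries, with 7 of 10 lower at an unadjusted p of 0.05, against 2.81% of all genes. Their part in these values was not tested.

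Of 9 genes known to act downstream of the members or beside them in the mesenchyme, 0 passed an adjusted p of 0.05 by limma in any experiment with all libraries. Without Vangl1/2 control 2, 5 were higher and 0 lower, against 21.7% and 22% of all genes. With the length trend also removed 4 were higher, against 8.07% of all genes. Fgf10, the mesenchymal growth factor that drives budding, was 846 ± 187 in Vangl1/2 controls and 1302 ± 100 in mutants (SD, n = 3 each). Its log2 fold change was 0.64 before and 0.49 after removal of the length trend, and 0.80 without control 2. In Dermo1Cre lungs Fgf10 was 873 ± 24 in controls and 914 ± 49 in mutants. Wnt2b had a log2 fold change of 0.79 and Wisp1 of 0.28 in Vangl1/2 lungs, and 1.19 and 0.42 without control 2.
Wnt2, a mesenchymal ligand, had a log2 fold change of 0.13 in Dermo1Cre lungs. Shisa3 was 390 ± 76 in controls and 331 ± 38 in mutants there, and 400 ± 75 and 256 ± 71 in the Sox9Cre experiment, where the groups did not overlap (SD, n = 3 each). Frzb and Wisp1 had log2 fold changes of -0.59 and -0.14 in Sox9Cre lungs.

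On the mouse genome (GRCm38, GENCODE release 21) the T-box members lie in 2 pairs. Tbx2 (chr11:85832551-85841948) and Tbx4 (chr11:85886422-85916097) are neighbours on the plus strand, as are Tbx3 (chr5:119670669-119684724) and Tbx5 (chr5:119832668-119885219). Twist2 spans chr1:91801461-91848028 on the plus strand and overlaps the antisense gene Gm29100. Tbx3 overlaps the antisense gene Tbx3os1. Neither antisense gene is a row of the tables, and whether counting used strand is not given in the sources used here, so that reads of these pairs cannot be told apart. Tcf21 spans chr10:22817281-22820174 on the minus strand.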

How the data were processed

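RNA-Seq of mouse embryonic lungs gave 18 libraries in 3 experiments. The submitters' processing notes name Trim Galore, HISAT2, featureCounts, DESeq2 and the build mm10; versions and strand settings are not given in the sources used here. The deposited values are a signal that the authors made by dividing gene counts by a size factor within each table. The columns of the authors' own comparison (means, log2 fold changes and p-values) were not used. Every value was a whole number of reads (tolerance 0.001 reads), so that read counts could be recovered from the deposited tables.

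Genes that reached 10 normalized counts in 3 or more of the 6 libraries were tested by limma 3.58.1 (R 4.3.3) with a mean-variance trend on log2(normalized count + 1), a scale that understates changes of low genes. P-values were two-sided and adjusted by Benjamini-Hochberg over all genes tested. Differences between experiments were tested in 1 limma fit of jointly scaled reads. Alternatives were edgeR 4.0.16 and DESeq2 1.42.0 on recovered reads, TMM and upper-quartile scaling, other pseudocounts, no filter, removal of a lowess trend (span 0.3) with transcript length per library, a replicate block and leaving out each library. Gene lists and named genes of the Vangl1/2 experiment were also taken without control 2, chosen after seeing the data. The scripts were tested on simulated data. A single gene tested by permutation of 3 against 3 libraries could not reach a p below 0.1, and none was run.

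The members and all gene lists were chosen with earlier results of these data known. Named beside the members were Vangl2, Wnt5a and, of each list, genes past the threshold or else the 3 with the smallest p per experiment. A gene that this rule names is not reported here. Markers are given as sums. The genes most like each member had the highest Pearson's r over 18 libraries after subtraction of group means.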

Additional observations from a re-analysis of the deposited data

How the results depend on the processing

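Leaving out 1 library moved the number of members past the threshold between 0 and 6 in the Vangl1/2 experiment, where 6 were called without control 2 and 0 without any other library. It moved the number whose effect differed between 0 and 3 for Vangl1/2 against Dermo1Cre and between 0 and 5 for Vangl1/2 against Sox9Cre, again through Vangl1/2 control 2. Those 3 were Tbx3, Tbx5 and Meis2, and the 5 were these with Tcf21 and Twist2. Of all 14823 genes tested, 4605 and 5516 were called in the same fits. With the length trend removed and control 2 left out, which was chosen after seeing the data, 2 members were called and Prrx1 moved to 0.0506 on the log2 scale. In the Dermo1Cre experiment DESeq2 called 1 member, Twist2, whose adjusted p ranged from 0.0040 with DESeq2 to 0.70 with limma without control 2 and with the length trend removed. In the Sox9Cre experiment 0 members were called under every alternative run. Over all genes, the Vangl1/2, Dermo1Cre and Sox9Cre experiments gave 1, 2 and 0 calls by limma and 11, 101 and 9 by DESeq2, and without Vangl1/2 control 2 limma gave 6180. The block gave 0, 16 and 0 calls. Over 1000 reads were counted in every library for 7 members, but Twist1 was low in every library. The part of counting error in the spread was not tested.

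Over all genes, replicate numbers did not pair the libraries consistently. Control and mutant libraries of the same number deviated together with correlations of 0.30, 0.05 and 0.01 in the Vangl1/2 experiment, 0.07, -0.07 and -0.22 in the Dermo1Cre experiment and 0.05, 0.13 and -0.12 in the Sox9Cre experiment, and not every library correlated best with its own number. With the replicate block 1 member was called in the Dermo1Cre experiment (Twist2, adjusted p = 0.048 by limma) and 0 in the others, and with the length trend also removed 0 members were called in any. The block called 0 members in the contrasts between experiments. Twist1 deviated in the same order by number in the Vangl1/2 and Sox9Cre experiments, but not in the Dermo1Cre experiment. With the block its SE in the Vangl1/2 experiment went from 0.58 to 0.22 (unadjusted p = 0.0092, adjusted p = 0.21 by limma). In the Sox9Cre experiment the block gave 2 members an unadjusted p under 0.05, as it did for 761 of 14293 genes.

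Other changes of sign concerned log2 fold changes that were not called in the fits named here, near 0 or of the widely spread Twist1 and Prrx1. Prrx1 in the Dermo1Cre experiment moved to 0.0171 with edgeR and 0.0204 with DESeq2. In the Sox9Cre experiment Tbx3 moved to 0.0015 with TMM scaling and Twist2 to -0.00097 with upper-quartile scaling. When 1 library was left out, Foxf1 ranged from -0.0543 to 0.0887 and Prrx1 from -0.37 to 0.39 in the Vangl1/2 experiment. In the Dermo1Cre experiment Tbx2 ranged from -0.0341 to 0.0305, Tbx3 from -0.0745 to 0.0038, Tbx4 from -0.0492 to 0.0102, Meis2 from -0.0289 to 0.0086, Twist1 from -0.58 to 0.19 and Prrx1 from -0.22 to 0.27. In the Sox9Cre experiment Tbx3 ranged from -0.0324 to 0.0198, Tbx4 from -0.0156 to 0.11, Tbx5 from -0.0228 to 0.0839, Tcf21 from -0.0383 to 0.0882, Twist2 from -0.0480 to 0.10 and Prrx1 from -0.24 to 0.21. Levels in RPKM depended on the length used. With the longest transcript Tcf21 was at 48.8 and Meis2 at 28.7, and with merged exons Tbx4 was at 58.9, Tcf21 at 37.2, Tbx5 at 39.3, Meis2 at 8.86, Tbx3 at 20.502, Twist2 at 6.14 and Prrx1 at 3.37. The causes were not tested.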

Other observations

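The genes whose deviations from their group means were most like those of a member, over 18 libraries and among 13980 genes tested in all 3 tables, are given as a description. For Prrx1 they were Zcchc5 (r = 0.96), Kctd12 and Synpo, and for Twist1 they were Postn (r = 0.90), Epb4.1l4a and Cdh3. Postn encodes a matrix protein of connective tissue and ranged from 769 to 3894 normalized counts over the libraries. For Twist2 the most alike were Mpzl3 (r = 0.89), Gm1943 and 9230110C19Rik, and for Tcf21 they were Mir682 (r = 0.81), Wdr25 and 2210404O07Rik. For Foxf1 they were Csrp1 (r = 0.91), Fam187b and Ell3.

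Syvn1 (r = 0.97), Fhod1 and Fam43a were closest to Tbx2, Nup214 (r = 0.95), Dvl3 and Fbf1 to Tbx3, Casc3 (r = 0.86), Fblim1 and Bend3 to Tbx4, and Maml1 (r = 0.94), Mrvi1 and Plagl1 to Tbx5. Ltbp4 (r = 0.97), Leng8 and Atxn2 were closest to Meis2. The r values of these most alike genes were not recomputed without Vangl1/2 controls 2 and 3. Among the members themselves, the highest r was 0.77 for Twist1 with Prrx1 and the lowest -0.62 for Tbx5 with Foxf1. The latter was -0.26 without Vangl1/2 controls 2 and 3, and -0.88, 0.41 and -0.28 within the Vangl1/2, Dermo1Cre and Sox9Cre experiments.

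Of 8 epithelial markers, 6 were lower in Dermo1Cre mutants at an unadjusted p of 0.05, against 4.76% of all genes. Their sums were 13778 to 14555 normalized counts in controls and 12726 to 12836 in mutants. In Vangl1/2 and Sox9Cre lungs 0 of 8 had an unadjusted p under 0.05 with all libraries. The mesothelial markers were higher in Vangl1/2 mutants for 3 of 5 tested and lower in Sox9Cre mutants for 4 of 6 at an unadjusted p of 0.05. Of all genes, 12% and 2.81% were called in those directions. With all libraries, no marker passed an adjusted p of 0.05 by limma in any experiment. Without Vangl1/2 control 2, 3 of 8 epithelial markers were lower and 3 of 5 mesothelial markers higher at that threshold. Of all genes, 22% were then called lower and 21.7% higher. With the length trend also removed, 0 epithelial markers were called and 2 mesothelial markers were higher, against 8.07% of all genes called higher.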
